A study of Mus musculus with 22 samples.

Results

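Potassium channel subunits were taken as all probe sets of the array (a probe set is the group of oligonucleotides that reports 1 transcript) whose single annotated gene symbol starts with Kcn. This rule gave 51 of the 12422 probe sets that are not controls, or 42 of the 8251 genes with a probe set of 1 symbol, and 9 of these 42 had several probe sets. The study put RNA of limb (leg) muscle and of the eye-moving extraocular muscles (EOM) on 22 Affymetrix arrays, 1 sample per array. The 8 groups were Balb leg, SJL leg, Balb EOM and SJL EOM, each at 10 months and at 12 months (the latter labelled 1 year), and each group held 3 arrays, apart from the 12-month EOM groups of either strain with 2. No treatment is named, and the labels give only the strain, muscle, age and a replicate number. SJL is an inbred strain known to carry a mutation of dysferlin, a membrane repair protein of muscle; Balb is an inbred strain used as the comparison, and other differences between the strains cannot be told apart from that mutation. The labels do not say whether replicates are separate animals, so the p-values below measure only the spread between these samples.

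Potassium channels let potassium leave or enter a cell and so set the resting potential and end the action potential. Voltage-gated Kv channels are built of pore subunits and may carry a cytoplasmic beta subunit (Kvbeta), which belongs to the aldo-keto reductase fold and can speed inactivation or change how much channel reaches the membrane. Inward rectifiers (Kir, the Kcnj genes) and 2-pore channels (the Kcnk genes) carry resting currents, ATP-sensitive channels pair a Kir pore with a sulfonylurea receptor (Abcc8 or Abcc9), and calcium-activated channels couple calcium to potassium efflux. Kcnab1 encodes Kvbeta1, which binds Kv1 pore subunits.

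The values are linear intensities, and the intensities of different probe sets cannot be set against each other as amounts of RNA. A probe set was marked near background in a group where the median, over the group's arrays, of its percentile rank among all probe sets of the same array was under 30; the files carry no detection calls. The intensity at that rank was 194 to 265 on the 10-month arrays, 133 to 156 on the 12-month leg arrays and 154 to 212 on the 12-month EOM arrays. By this mark 10 of the 51 members were near background in all 8 groups, 18 were above it in all 8, and 23 were near background in some groups. Probe sets in the lowest 30% by mean level entered no test, which left 8695 probe sets and 27 of the 51 members, for 26 genes.

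Markers of skeletal muscle agreed in kind with the labels: Ckm, the muscle creatine kinase, stood at or above the 95.4th percentile on every array, and Ryr1, the calcium release channel of muscle, at or above the 98.3rd. Myh4, a fast myosin, ranged from 1 to 107361. The 4 replicate 1 arrays at 10 months, 1 in each group of that age, stood apart, with ratios of the 3 prime to the 5 prime probe set of Actb of 5.05 to 53.7 against 0.847 to 1.93 on the other 18 arrays. The tests on the 27 members that entered the main fit were therefore also computed on those 18 arrays; the marker and pathway lists, the correlations and the fit with no probe set left out were not. In these whole-tissue samples, fewer cells of a type and less RNA per cell cannot be told apart.

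**Figure D1:**
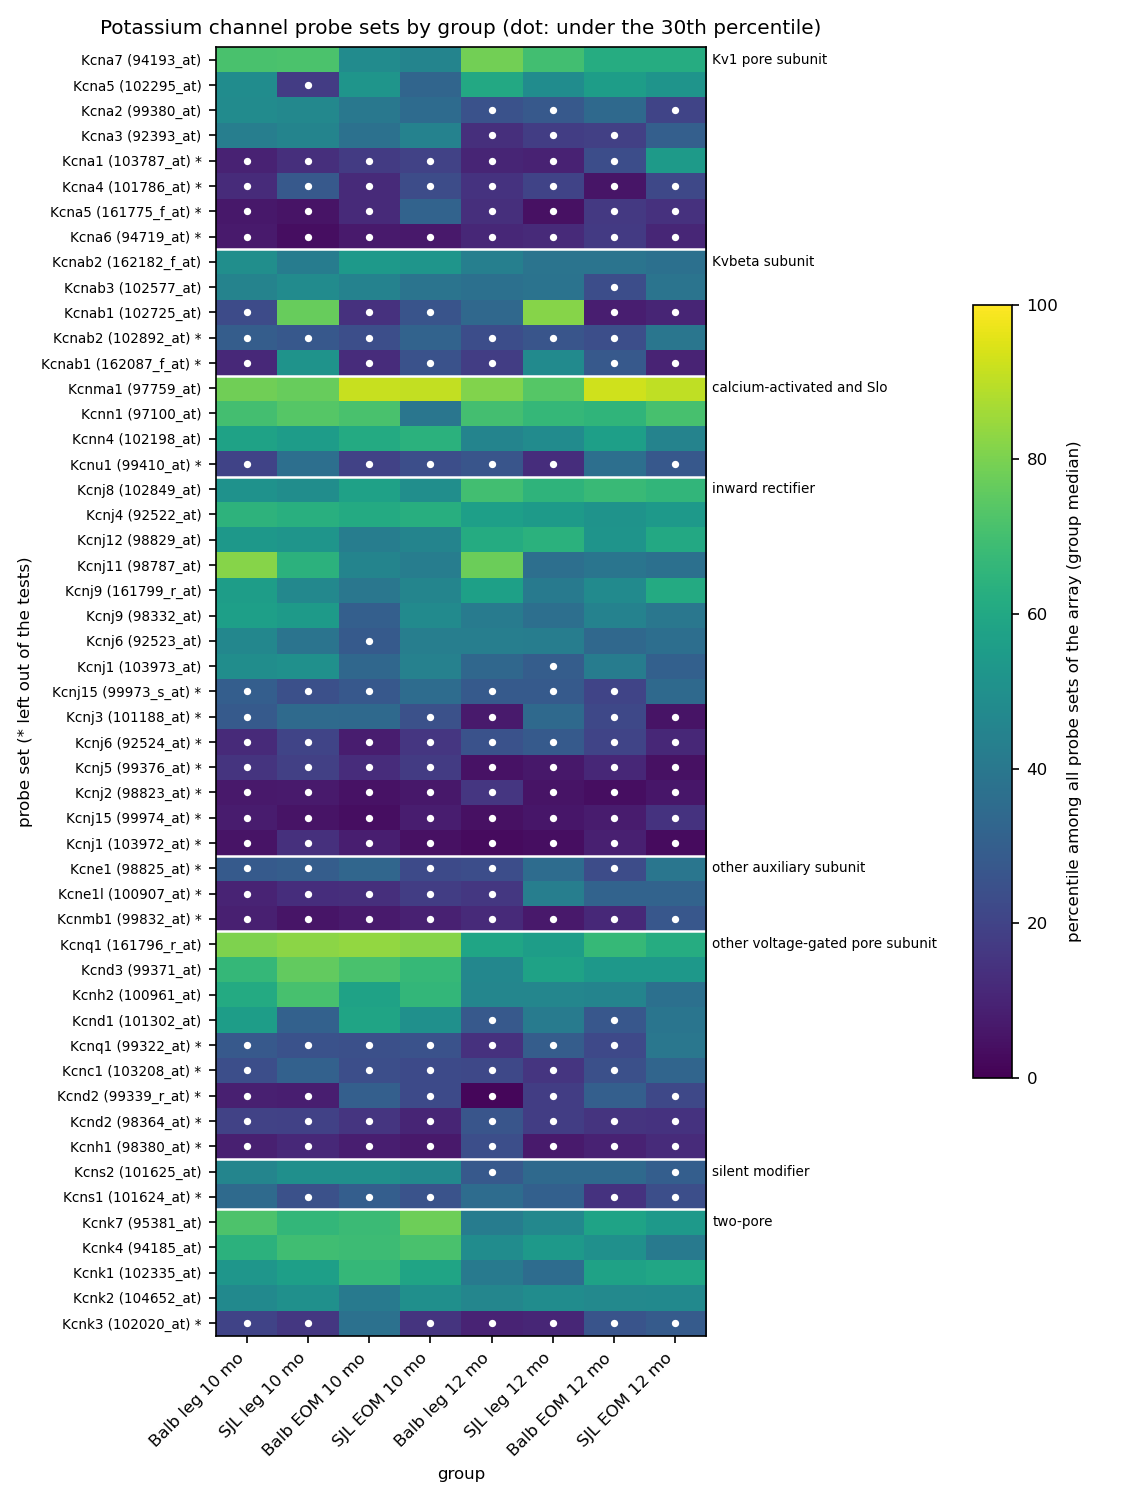
Percentile rank of each of the 51 potassium channel probe sets (rows, by class) among all probe sets of the array, as the group median in the 8 groups (columns); a white dot marks a rank under 30, and an asterisk marks the members left out of the tests. The 2 probe sets of Kcnab1 stand above 30 in the SJL leg columns at both ages, and 10 rows carry a dot in all 8 columns.

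The beta subunits came first, because Kcnab1 was singled out with its pattern across the groups known. Its values in that pattern are therefore given as a description, with no test. Kcnab1 lies on chromosome 3 (plus strand of GRCm38.p6), and RefSeq lists 3 transcription starts for it. The 250 bases before each start are shown so that the starts can be compared, with any GC box (GGGCGG or its reverse complement CCGCCC) in capitals. The windows are, in order, chr3:64948962-64949211, chr3:65108764-65109013 and chr3:65187853-65188102.
Kcnab1 start 1: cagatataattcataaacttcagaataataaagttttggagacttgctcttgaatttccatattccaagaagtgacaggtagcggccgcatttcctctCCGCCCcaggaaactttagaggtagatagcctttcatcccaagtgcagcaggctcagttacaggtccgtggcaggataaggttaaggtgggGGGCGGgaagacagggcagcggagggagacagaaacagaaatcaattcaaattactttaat
Kcnab1 start 2: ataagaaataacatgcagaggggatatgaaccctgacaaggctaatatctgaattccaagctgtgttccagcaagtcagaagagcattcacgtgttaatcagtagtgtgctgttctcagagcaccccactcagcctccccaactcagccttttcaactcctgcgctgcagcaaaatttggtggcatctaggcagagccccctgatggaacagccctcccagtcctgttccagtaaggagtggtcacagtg
Kcnab1 start 3: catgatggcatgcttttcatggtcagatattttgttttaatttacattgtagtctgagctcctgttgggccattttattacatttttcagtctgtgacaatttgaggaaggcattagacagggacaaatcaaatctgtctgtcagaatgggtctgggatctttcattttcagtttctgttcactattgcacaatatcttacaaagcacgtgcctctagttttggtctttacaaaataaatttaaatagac
The first window holds 2 GC boxes, which begin 152 and 61 bases before the start, and the other 2 windows hold none; 32.7% of 32851 RefSeq promoter windows of the same length hold at least 1. None of the 3 windows holds CAGCTG, an E-box form bound by myogenic factors (in 13% of windows), TATAAA (12.4%) or CCAAT (33.8%), all searched on both strands. Their GC content was 45.2%, 50% and 35.6%, against a median of 52.4% over all windows. The array values do not tell which start was used.

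Kcnab1 (probe set 102725_at) read 5699, 1439.1 and 1829.7 on the 10-month SJL leg arrays and 1815.5, 2469.1 and 2782.5 on the 12-month SJL leg arrays. In Balb leg it read 126.4, 125.2 and 200.1 at 10 months and 186.9, 87.2 and 241.6 at 12 months. The 6 SJL leg arrays lay above all 16 others, and the lowest of them was 5.96-fold above the highest of the rest. In EOM, Kcnab1 read 122.7, 87.5 and 59.2 in Balb and 68, 186.4 and 229.5 in SJL at 10 months, and 40.6 and 41.3 in Balb and 40.6 and 41.8 in SJL at 12 months. It was near background in all 4 EOM groups and in Balb leg at 10 months, and above that mark in both SJL leg groups and in Balb leg at 12 months. The highest SJL leg value, 5699, came from the replicate 1 array at 10 months, and the other 5 SJL leg arrays read 1439.1 to 2782.5.

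On the log2(intensity + 16) scale, used for every difference below, the SJL minus Balb difference of Kcnab1 in leg was 3.83 (SE 0.36), or 14.2-fold. It was 3.93 on the 10-month arrays alone, 3.74 on the 12-month arrays alone, and 3.48 without the 4 replicate 1 arrays. In EOM the difference was 0.33 (SE 0.40, 95% interval -0.51 to 1.17), so the strain difference in leg exceeded that in EOM by 3.50 (SE 0.54), and by 2.81 on 18 arrays. Within SJL, EOM lay below leg by a log2 difference of -4.65 (SE 0.38). Because the low side of these differences lay at or near background, their sizes depend on the constant added: with 64 in place of 16 the leg difference was 3.49 and that between the SJL muscles -4.04, and with 1 they were 3.96 and -4.94. No p is attached to these values, because they are what the gene was chosen for.

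The age difference of Kcnab1 within SJL leg rests on the same arrays by which the gene was chosen, so it is given as a description. From 10 to 12 months it was -0.09 (SE 0.51, 95% interval -1.15 to 0.97), and 0.51 on 18 arrays. Kcnab1 entered the tests through its level in SJL leg, so its differences among the low groups are given without a test. EOM lay below leg in Balb by a log2 difference of -1.15 (SE 0.38), and the 5 Balb EOM arrays lay below the 6 Balb leg arrays within each age, all 11 being low. The age differences were 0.10 (SE 0.51) in Balb leg, -0.85 (SE 0.56) in Balb EOM and -1.49 (SE 0.56) in SJL EOM.

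A second Kcnab1 probe set, 162087_f_at, whose suffix marks probes that can bind related transcripts, was left out of the tests for its low mean. It read 905.2, 598.7 and 599.8 in SJL leg at 10 months and 381.5, 564 and 300.8 at 12 months. The other 16 arrays read 20.1 to 281.7, the highest being a Balb EOM array at 12 months. The SJL leg arrays were again above all others, by a narrower margin than with the first probe set. The probe sets correlated at r = 0.837 over the 22 arrays (log2 scale), at 0.405 over the 6 SJL leg arrays and at 0.244 over the 16 others, as a description.

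**Figure D2:**
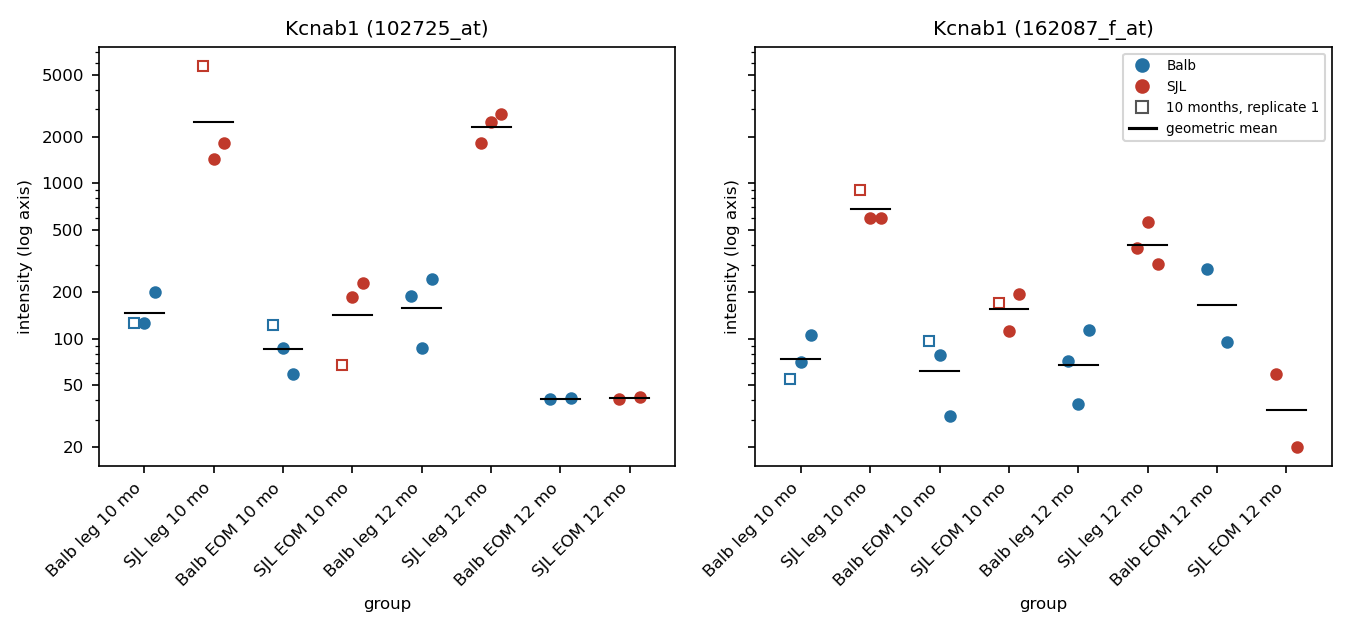
Intensity (log axis) of the 2 Kcnab1 probe sets on each of the 22 arrays, by group, with the geometric mean of each group as a line; open squares are the 10-month replicate 1 arrays. With 102725_at the 6 SJL leg arrays read 1439.1 to 5699, against at most 241.6 elsewhere.

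The other beta subunits did not share this pattern. Kcnab2 (Kvbeta2; probe set 162182_f_at) read 442.8, 463.6 and 80.3 in SJL leg and 497, 573.7 and 695.5 in Balb leg at 10 months, and 132.7 to 300.2 against 204.2 to 430.1 at 12 months. Its arrays overlapped at 12 months, and its strain difference in leg was -0.80 (SE 0.37, adjusted p = 0.583). Its other probe set, 102892_at, was left out of the tests and near background in 6 of the 8 groups. Kcnab3 (Kvbeta3) read 306.7 to 903.3 in SJL leg and 140.9 to 751.2 in Balb leg at 10 months, and its strain difference in leg was 0.33 (SE 0.36, adjusted p = 0.937).

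Markers of other cells differed between the leg samples of the strains too. Of 14 macrophage and other myeloid markers tested, 5 rose in SJL leg, among them Ctss, a lysosomal protease, and their summed intensity was 19376 to 39130 on the SJL leg arrays and 8547 to 18024 on the Balb leg arrays. Of 12 regeneration markers 2 rose, Actc1 (cardiac actin) and Chrna1 (a subunit of the muscle acetylcholine receptor), with sums of 30961 to 64149 and 19759 to 28950. Of 7 fat cell markers tested 1 rose, Car3 (0.94, adjusted p = 0.0476 by limma), and the median difference of the list was -0.01. The fat cell sums did not overlap, at 44345 to 54153 in SJL leg against 31259 to 40221 in Balb leg. A sum gives most weight to the highest probe sets, so with that median it does not show that the list as a whole rose. In Balb EOM against leg Car3 fell (-1.01), while the 3 other called markers of this list, Adipoq, Retn and Lpl, rose. Of 10 smooth muscle and pericyte markers 1 fell, Rgs5 (-2.56, adjusted p = 4.28e-06 by limma). The Schwann cell, neuron and lymphocyte lists had 0 of 8, 0 of 6 and 0 of 6 members called. Of all probe sets tested 1.41% passed between the strains in leg. On the EOM arrays the macrophage sums were 14789 to 30306 and the regeneration sums 42538 to 94071. The part of these cells in the Kcnab1 values of SJL leg was not tested.

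Kcnab1 was set against the other 26 tested members, and is left out of the counts of this paragraph. Of these 26, 0 passed for SJL against Balb in leg, against 1.41% of all probe sets tested, and 3 had an unadjusted p under 0.05 by limma, against 8.12%. They lay between -1.11 (Kcna5, SE 0.33, adjusted p = 0.145) and 0.33 (Kcnab3), and 25 of them lay within 1 log2 unit of 0. In EOM 0 of 26 passed, against 0.932%, and 1 had an unadjusted p under 0.05 by limma, against 8.19%. That member was Kcna5, at -0.90 (SE 0.37, adjusted p = 0.452). The difference of the strain effect between the muscles passed for 0 of 26, against 0.092%, and 1 had an unadjusted p under 0.05 by limma, against 4.65%: Kcnj9, at -1.33 (SE 0.50, adjusted p = 0.846). On 18 arrays, where 8.18% of all probe sets passed in leg, the smallest adjusted p among the 26 there was 0.114 (Kcnma1, by limma).

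Kcna5, a Kv1 pore subunit of heart and vessels, had the lowest strain difference in both muscles without passing in either. Its probe set 102295_at read 95, 130.1 and 462.1 in SJL leg and 536.1, 684.6 and 407.8 in Balb leg at 10 months. At 12 months it read 254.6, 400.9 and 489.8 in SJL leg and 389.9, 877.8 and 746.6 in Balb leg. The leg arrays of the strains overlapped at both ages, while in EOM every SJL array was below every Balb array of its age, at 149.9 to 321.9 against 495.8 to 728.1 at 10 months and 457.9 to 587.8 against 701 to 710.4 at 12 months. Arrays so separated at both ages, with SJL EOM below, were found for 1.94% of all 12422 probe sets and for 2 of the 51 members, the second being Kcnj3, a G-protein-gated Kir pore left out of the tests. The other Kcna5 probe set, 161775_f_at, was near background in 7 groups and hardly followed the first (r = 0.0492 over 22 arrays).

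**Figure D3:**
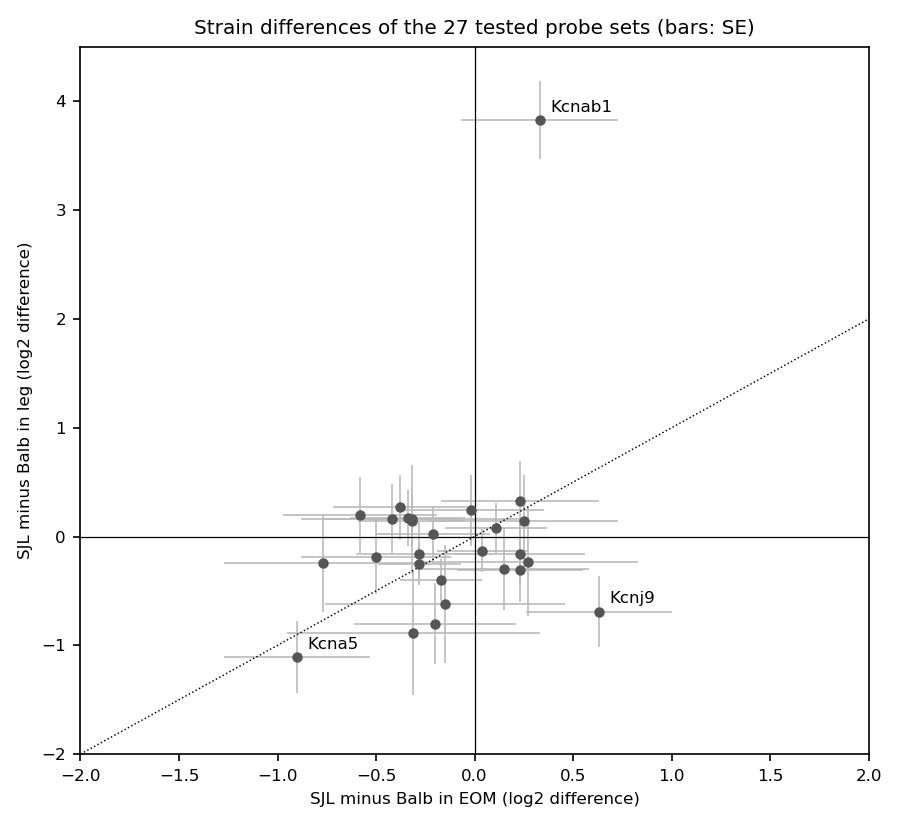
SJL minus Balb difference in leg (vertical axis, log2) against that in EOM (horizontal axis, log2) for the 27 tested potassium channel probe sets, with bars of 1 SE; the dotted line marks equal differences. Kcnab1 stands at 3.83 in leg and 0.33 in EOM, and the other 26 lie between -1.11 and 0.33 in leg.

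Genes whose values were most like those of Kcnab1 (102725_at) were sought among all probe sets tested. Over the 22 arrays and 7791 tested probe sets with 1 symbol, the highest Pearson correlations were with Odc1 (0.907), the first enzyme of polyamine synthesis, Padi2 (0.857), a peptidyl arginine deiminase, Pla2g7 (0.826), a secreted phospholipase of macrophages, Nabp1 (0.818), a single-strand DNA binding protein, and Ighm (0.804), the heavy chain of IgM. The points share their arrays and groups, and no test is attached. The second Kcnab1 probe set stood at 0.837, as given above, and within the family the highest correlation with another gene was 0.267 (Kcna4, near background throughout) and the lowest was -0.761 (Kcnma1). Of the 3 nearest measured genes on either side on chromosome 3, those before Kcnab1 (Vmn2r1, Slc33a1 and Mme) were left out of the tests for low values. Those after it had strain differences in leg of 0.26 (Ssr3, adjusted p = 0.905), -0.16 (Tiparp, adjusted p = 0.965) and 0.50 (Ptx3, adjusted p = 0.466).

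EOM against leg gave counts that do not set the family apart from the other probe sets. Leaving Kcnab1 aside, 2 of 26 members passed in Balb, against 13.6% of all probe sets tested, and 2 of 26 in SJL, against 9.56%. In both strains they were higher in EOM, and were Kcnma1, the pore of the large-conductance calcium-activated channel (BK), and Kcnk1, the 2-pore channel TWIK1. Kcnma1 (97759_at) read 7956.2, 5140.6 and 4810.8 in Balb EOM at 10 months and 5653.4 and 6993 at 12 months. In Balb leg it read 2789.5, 2049.9 and 1880.3, and 2347.6, 2732.5 and 2105.7. All EOM arrays lay above all leg arrays, a log2 difference of 1.39 (SE 0.20, adjusted p = 0.000104), or 2.63-fold. On the 10-month arrays alone the difference was also 1.39 but did not pass (adjusted p = 0.0718 by limma). Over the alternative fits it ran from 1.2 to 1.48.

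In SJL, Kcnma1 read 8859.1, 4615.9 and 4653.3 in EOM at 10 months and 4579.4 and 5578.1 at 12 months. SJL leg read 1875.4, 2101.9 and 1798.7, then 1391.9, 1873.8 and 1462.7, so that again no EOM array overlapped a leg array. The difference was 1.63 (SE 0.20, adjusted p = 2.61e-05), and 1.46 on 18 arrays. The EOM arrays of replicate 1 at 10 months gave the highest value in each strain. Kcnmb1, the BK beta subunit of smooth muscle, was near background in all 8 groups (8.2 to 306.3). Of 10 smooth muscle and pericyte markers, 3 rose in the EOM of Balb and 5 in that of SJL (among them Acta2, smooth muscle actin), with overlapping sums of 14624 to 34031 on the EOM arrays and 9466 to 23318 on the leg arrays, and their part in the Kcnma1 difference was not tested.

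Kcnk1 (102335_at) differed between the muscles mainly at 12 months. At 10 months it read 1276.8, 817.6 and 1571.3 in Balb EOM and 386.8, 900.2 and 674.4 in Balb leg, and 857.1, 1009.1 and 876.9 in SJL EOM and 768.5, 1074.3 and 480 in SJL leg. At 12 months it read 821.8 and 727.6 in Balb EOM and 726.9 and 758 in SJL EOM, against 355.9, 260.4 and 183.6 in Balb leg and 194.4, 344 and 163.7 in SJL leg. The muscles overlapped at 10 months in each strain and did not overlap at 12 months. Averaged over the ages, the difference was 1.22 in Balb (SE 0.28, adjusted p = 0.00661) and 0.99 in SJL (SE 0.28, adjusted p = 0.0312). On the 10-month arrays alone it was 0.92 (adjusted p = 0.436 by limma) and 0.30 (adjusted p = 0.899). Leaving out any of 7 single SJL arrays ended the call in SJL, with a difference of 0.84 to 1.0 and an adjusted p of 0.0508 to 0.105 by limma: leg replicate 3 and EOM replicates 2 and 3 at 10 months, leg replicates 1 and 3 and either EOM array at 12 months. The SJL call was also lost after quantile normalization (0.83, adjusted p = 0.0714 by limma) and in a fit to the groups compared alone (0.99, adjusted p = 0.0673). Markers of orbital gland and epithelium, where 2-pore channels also occur, were higher in EOM for 6 of 9 genes in Balb and 2 of 9 in SJL, with sums of 9997 to 41540 against 2066 to 8184 in leg; their part was not tested.

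Kcna7, a Kv1 pore subunit of heart and skeletal muscle, showed how much the replicate 1 arrays at 10 months weighed. They were the lowest of their groups, at 679.4 in Balb leg, 271.9 in SJL leg, 79.1 in Balb EOM and 91.9 in SJL EOM. The other arrays read 1457.6 to 2419.8 in Balb leg, 1013.8 to 1693.5 in SJL leg, 574.7 to 1094.9 in Balb EOM and 497.9 to 1050.7 in SJL EOM. With all 22 arrays the EOM minus leg difference was -1.47 in Balb (SE 0.58, adjusted p = 0.105) and -1.0 in SJL (SE 0.58, adjusted p = 0.331). On 18 arrays it was -1.20 (SE 0.18, adjusted p = 6.31e-05) and -1.02 (SE 0.18, adjusted p = 0.000295). On 18 arrays 5 of the 26 members other than Kcnab1 passed in Balb (Kcnn4, Kcnk1 and Kcnma1 higher, Kcna7 and Kcnj11 lower), against 33.4% of all probe sets, and 3 in SJL (Kcnk1 and Kcnma1 higher, Kcna7 lower), against 30.8%. With the replicate number within age as a block, 6 members, Kcnab1 counted, passed in Balb on 22 arrays. The share of all probe sets in that fit is not given here.

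**Figure D4:**
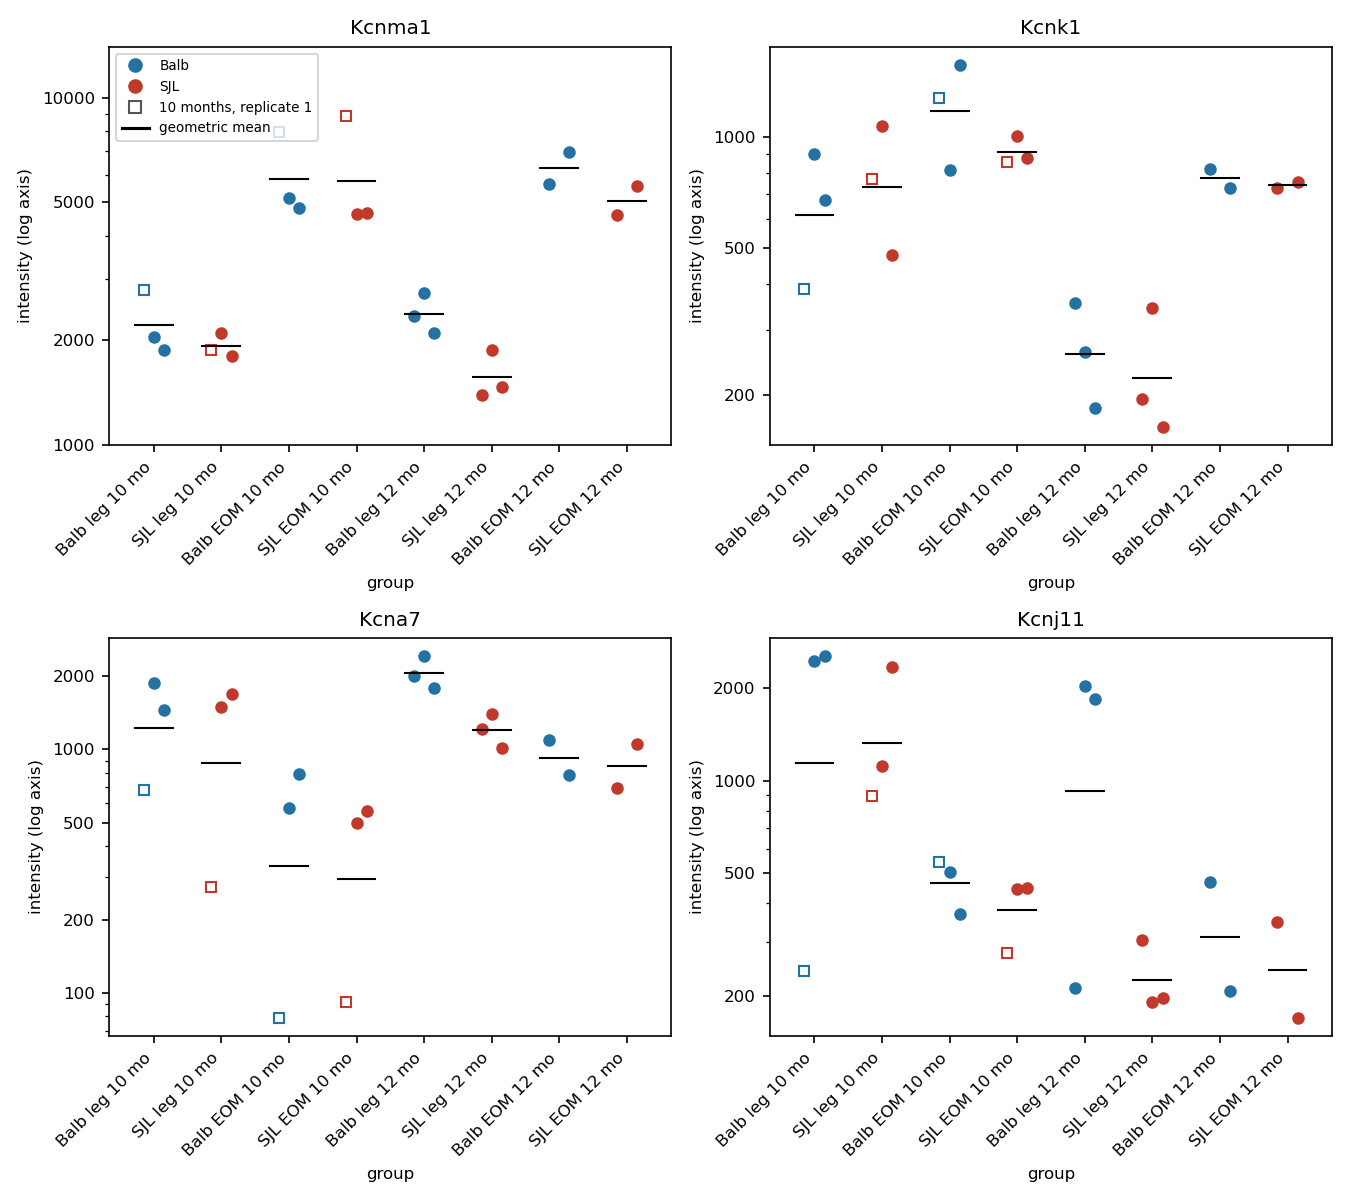
Intensity (log axis) of Kcnma1, Kcnk1, Kcna7 and Kcnj11 on each of the 22 arrays, by group, with the geometric mean of each group as a line; open squares are the 10-month replicate 1 arrays. All Kcnma1 values in EOM (at least 4579.4) lie above all those in leg (at most 2789.5), and the open squares of Kcna7 lie lowest in each 10-month group.

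Kcna1 (Kv1.1, a pore subunit known from axons) was near background in 7 of the 8 groups and entered no test with the low values left out. It read 22.3 to 88.6 on the 12 leg arrays and 76.1 to 201.1 on 8 of the EOM arrays. The remaining 2, both of SJL EOM at 12 months, read 537.2 and 638.5. Within each age and strain every EOM array lay above every leg array. With no probe set left out, EOM exceeded leg by 1.07 in Balb (SE 0.26, adjusted p = 0.0126) and by 2.18 in SJL (SE 0.26, adjusted p = 3.01e-05), and 12 months exceeded 10 months in SJL EOM by 2.04 (SE 0.39, adjusted p = 0.00305). In that fit 9.11%, 6.58% and 11.8% of all 12422 probe sets passed in these comparisons, and 3, 3 and 3 of the 24 members otherwise left out. Schwann cell and myelin markers were also higher in EOM than in leg, for 7 of 8 in each strain, with sums of 18550 to 25295 in EOM against 5535 to 9701 in leg, while 0 of 6 neuron and axon markers passed between the muscles; their part was not tested. With age in SJL EOM, 0 of these 8 Schwann cell and myelin markers rose and 1 fell, with 2 arrays at 12 months. Their median difference was 0.12, against -0.13 for all probe sets tested, and their part there was not tested either.

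The other low members that passed in EOM against leg in that fit were Kcnk3 (the 2-pore channel TASK1) at 1.36 and Kcnd2 (Kv4.2; probe set 99339_r_at) at 2.62 in Balb, and, in SJL, the second Kcna5 probe set at 1.46 and the second Kcnab1 probe set at -2.53, the latter part of the pattern that gene was chosen for. Kcnd2 read 189.4 to 604.9 on the Balb EOM arrays and 3.8 to 109.2 on the Balb leg arrays, which did not overlap, but its other probe set, 98364_at, did not follow (r = 0.00356 over 22 arrays) and was near background throughout. Across the 9 genes with several probe sets, this correlation ran from 0.00356 (Kcnd2) to 0.837 (Kcnab1). Both Kcnj9 probe sets were tested (Kcnj9 is the Kir pore GIRK3), and they correlated at 0.056.

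Among the inward rectifiers, Kcnj11 (Kir6.2) and Kcnj8 (Kir6.1) form the pores of ATP-sensitive channels. Kcnj11 (98787_at) read 240.3, 2449.4 and 2542.3 in Balb leg at 10 months and 212.6, 2027.8 and 1841.5 at 12 months. Replicate 1 was low at both ages there, although at 12 months that array was not among the 4 that stood apart by Actb. In SJL leg it read 892.8, 1116.3 and 2348.2 at 10 months and 304.8, 191.4 and 196.5 at 12 months, and the ages did not overlap. Its age difference in SJL leg was -2.48 (SE 0.81, adjusted p = 0.0316); the change in Balb leg was -0.30 (SE 0.81, adjusted p = 0.851), and the difference between the strains' changes was not tested. The EOM arrays read 169.9 to 542.7.

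The receptors that complete these channels differed between the muscles in opposite directions. Abcc8 (SUR1) read 912.7 to 1596.9 on the 10 EOM arrays and 208.1 to 662.2 on the 12 leg arrays, with no overlap, and rose in EOM by 1.73 in Balb (SE 0.23, adjusted p = 7.5e-05) and 1.87 in SJL (SE 0.23, adjusted p = 3.94e-05). Abcc9 (SUR2), the receptor of muscle and vessels, fell in EOM, with differences of -1.01 (SE 0.21, adjusted p = 0.00364) and -0.84 (SE 0.21, adjusted p = 0.0168). Its muscles overlapped in SJL at 10 months, at 1409.7 to 3093.4 in EOM against 2641.3 to 3574.6 in leg. They did not overlap in SJL at 12 months or in Balb at either age. Taken over both ages, they overlapped in each strain. Abcc8 and Abcc9 were the only members of a list of 13 tested channel partners and scaffolds that passed between the muscles. Of all probe sets tested 13.6% passed there in Balb and 9.56% in SJL. Between the strains 0 of 13 passed in either muscle, against 1.41% in leg and 0.932% in EOM. Kcnj8 itself, at 505.3 to 1293.4 in leg and 537.1 to 1279.9 in EOM, did not pass between the muscles.

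Other genes of membrane excitability gave the setting. Between the strains, 1 of 11 tested acetylcholine receptor and endplate genes passed in leg (Chrna1, 1.75, adjusted p = 0.00134 by limma). In leg and in EOM 0 passed among 1 sodium channel, 16 calcium channel and excitation-contraction coupling genes, 8 chloride channels, 7 sodium-potassium ATPase genes and 3 HCN and cyclic nucleotide-gated channels. Over all probe sets tested 1.41% passed in leg and 0.932% in EOM, so counts of 0 in lists this short do not set these genes apart. Between the muscles, Cacng1, the gamma subunit of the muscle calcium channel, fell in EOM, with differences of -3.84 in Balb (adjusted p = 2.25e-06) and -3.57 in SJL (adjusted p = 5.78e-06). Atp1b2, a beta subunit of the sodium pump, fell (-2.59, adjusted p = 0.00227, and -2.40, adjusted p = 0.00534, by limma). Of the 7 sodium pump genes 4 rose in Balb EOM, among them Fxyd3 (2.53) and Fxyd2 (2.24), regulators of the pump. In SJL EOM 2 rose, Atp1b1 (1.05) and Fxyd3 (1.31). Over all probe sets tested 8.72% were called higher in Balb EOM and 6.14% in SJL EOM. Orbital gland and epithelium markers were also higher in EOM, and their part in these differences was not tested. Clic4, an intracellular chloride channel protein, rose by 1.55 (adjusted p = 0.00157) and 1.14 (adjusted p = 0.0189).

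Most calls by age were in leg. From 10 to 12 months 11 of 27 fell in Balb leg and 1 rose, against 15.9% of all probe sets called lower and 3.21% higher. In SJL leg 12 fell, against 19.3%. In both leg comparisons 10 members fell. In EOM 1 fell in Balb, against 6.57%, and 5 in SJL, against 12.3%. With the replicate number within age as a block 4 and 13 passed in EOM. For the count in both leg comparisons and for the counts with the block, the share of all probe sets is not given here. The members' median difference was -0.91 in Balb leg, -1.0 in SJL leg, -0.60 in Balb EOM and -0.82 in SJL EOM, and the median of all probe sets tested was -0.08, -0.10, -0.06 and -0.13.

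The arrays of the ages also differed as a whole. The median intensity of an array was 565.8 to 650.6 at 10 months and 423.1 to 561 at 12 months, with no overlap, and low probe sets lay lower at 12 months: in Balb leg, with the probe sets tested cut into 3 equal classes by mean level, the median difference was -0.50 in the low, -0.12 in the middle and 0.15 in the high class. Of the 27 members, 16 were in the low class, 10 in the middle and 1 in the high class. In Balb leg 6 low-class members were called lower, against 17.9% of that class, and 5 middle-class members, against 19.6%. In SJL leg these were 7, against 24.7%, and 5, against 22.9%. Balb EOM had 0, against 5.76%, and 1, against 8.76%. SJL EOM had 1, against 13.3%, and 4, against 15.7%. After quantile normalization 3, 6, 0 and 3 members passed in Balb leg, SJL leg, Balb EOM and SJL EOM, in place of 12, 12, 1 and 5. The share of all probe sets that passed after quantile normalization is not given here. The part of the array level in the age differences was not tested otherwise. Marker lists fell in leg too: of the fast fibre markers 7 of 14 fell in each strain (sums of 206984 to 948246 on the 10-month and 150364 to 243655 on the 12-month leg arrays), and of the markers defining skeletal muscle 3 of 9. Orbital gland and epithelium markers fell for 4 of 9 in Balb leg and 5 in SJL leg (sums of 6422 to 8184 and 2066 to 2849), and lymphocyte markers for 2 of 6 and 3 of 6 (3917 to 6899 and 1743 to 2546). Their part in the members' age differences was not tested.

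The share of all probe sets that fell in all 4 age comparisons is not given here. Among the members 1 did, Kcnq1 (Kv7.1, the pore of a slow voltage-gated current, probe set 161796_r_at). It read 3070.9, 2083.5 and 2334.5 in Balb leg at 10 months and 984.1, 676.3 and 540.9 at 12 months. SJL leg read 4168.1, 2562 and 1509.2, then 569.5, 510.2 and 589.5. Balb EOM read 5668, 2820.4 and 2368.9, then 1422.9 and 929.4, and SJL EOM 5382.4, 2490 and 2007, then 882.8 and 846.6. The ages did not overlap in any of the 4 strain and muscle combinations. The log2 differences were -1.77 (SE 0.40, adjusted p = 0.00533), -2.15 (SE 0.40, adjusted p = 0.000865), -1.53 (SE 0.45, adjusted p = 0.0455) and -1.78 (SE 0.45, adjusted p = 0.0126). Its other probe set, 99322_at, was near background in 7 groups and was left out of these tests; with no probe set left out it fell in Balb leg (-1.78, adjusted p = 0.0132) but read -0.22 (adjusted p = 0.759) in SJL leg, -0.40 (adjusted p = 0.708) in Balb EOM and 0.22 (adjusted p = 0.807) in SJL EOM.

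Among the 2-pore channels, Kcnk7 (95381_at), a member not known to pass current alone, read 1447.9 to 1720.9 in Balb leg at 10 months and 112.7 to 343.2 at 12 months, a difference of -2.72 (SE 0.47, adjusted p = 0.000796). It also fell in SJL leg (-1.86, adjusted p = 0.00725) and SJL EOM (-1.67, adjusted p = 0.0388). Kcnk4, the mechanosensitive channel TRAAK, read 1362 to 1817.2 in SJL EOM at 10 months and 580.8 and 157.1 at 12 months, a difference of -2.27 (SE 0.41, adjusted p = 0.00165). It fell in both leg comparisons (-1.26 and -1.33). Kcnk1 fell in Balb leg (-1.21, adjusted p = 0.0289) and SJL leg (-1.65, adjusted p = 0.00333), and its EOM differences did not pass.

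Beside Kcnq1, the voltage-gated pores that fell in both leg comparisons were Kcna2 (Kv1.2; -1.89 and -1.90), Kcna3 (Kv1.3 of lymphocytes and nerve; -2.11 and -1.94) and Kcnh2 (the ERG channel; -1.46 and -1.84). Kcnh2 also fell in SJL EOM (-2.02, adjusted p = 0.00885). Kcns2, a silent Kv subunit that acts only together with other pores, fell in Balb leg (-1.56), SJL leg (-1.73) and SJL EOM (-1.62). Kcnd1 (Kv4.1) fell in Balb leg (-2.35, adjusted p = 0.0273); in Balb EOM it read -1.58 (adjusted p = 0.258), and -2.33 on 18 arrays (adjusted p = 0.0194). Among the Kir pores, Kcnj1 (103973_at; -1.70 and -1.83) and Kcnj4 (-0.96 and -1.0) fell in both leg comparisons, and Kcnj9 (98332_at) in SJL leg (-2.07, adjusted p = 0.00862).

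Kcnj8 was the only one of the 27 tested members called higher at 12 months on 22 arrays; Kcna1, tested only with no probe set left out, rose in SJL EOM as given above. It read 591.8, 787.3 and 505.3 in Balb leg at 10 months and 1293.4, 1222.1 and 1212.6 at 12 months, with no overlap, a difference of 0.99 (SE 0.27, adjusted p = 0.0152). In SJL leg the arrays overlapped, at 539.4 to 808.6 and 697.8 to 1009.1, and the difference was 0.47 (SE 0.27, adjusted p = 0.224).

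With no probe set left out, 3 of the 24 low members fell with age in Balb leg, against 14.9% of all 12422 probe sets called in either direction, and 3 in SJL leg, against 22%. Kcnj5, a G-protein-gated Kir pore, fell in Balb leg (-1.42, adjusted p = 0.00283), SJL leg (-1.85, adjusted p = 0.00022) and SJL EOM (-1.71, adjusted p = 0.00247), although it was near background in all 8 groups. The others were Kcnk3 (-1.77) and the second Kcnq1 probe set in Balb leg, and Kcnc1 (Kv3.1; -1.81) and Kcnu1 (the Slo3 pore known from sperm; -2.14) in SJL leg. In SJL EOM the second Kcnab1 probe set fell as well (-1.71, adjusted p = 0.0451 by limma). It was near background there at both ages, at 111.4 to 193.5 and, on the 2 arrays at 12 months, 20.1 and 59.2.

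**Figure D5:**
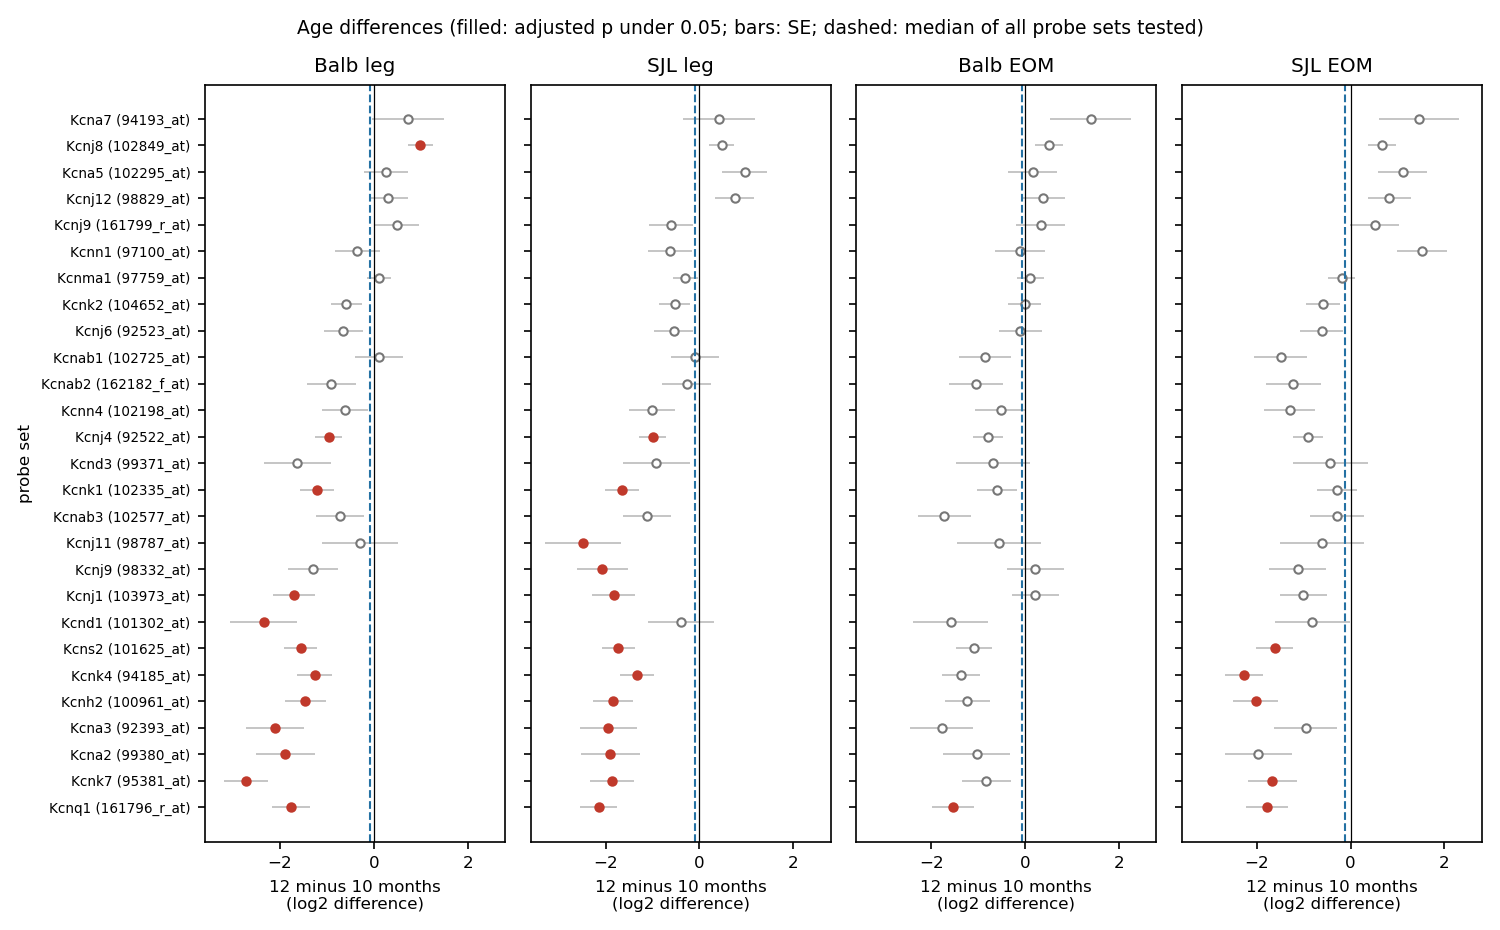
Difference between 12 and 10 months (log2) for the 27 tested potassium channel probe sets in Balb leg, SJL leg, Balb EOM and SJL EOM, with bars of 1 SE; filled points passed the test, and the dashed line is the median of all probe sets tested. Most points lie left of the dashed line, with member medians of -0.91, -1.0, -0.60 and -0.82.

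The members near background in all 8 groups were the Kir pores Kcnj1 (103972_at), Kcnj2, Kcnj5, Kcnj6 (92524_at) and Kcnj15 (99974_at), the Kv1 pores Kcna4 and Kcna6, the pores Kcnd2 (98364_at) and Kcnh1, and the beta subunit Kcnmb1. Kcnj2 encodes Kir2.1, a main resting channel of muscle, and its probe set read 11.7 to 148.8 over all arrays. Of the 3 auxiliary subunits outside the Kvbeta family none was tested, and Kcne1, a partner of Kcnq1, read 57 to 670.3. The calcium-activated members Kcnn1 (310.8 to 2280.9) and Kcnn4 (186.7 to 1478.8) were tested and did not pass in any of the 9 comparisons with 22 arrays. By class, the tests held 3 of 4 calcium-activated and Slo probe sets, 8 of 15 inward rectifiers, 4 of 8 Kv1 pores, 3 of 5 Kvbeta subunits, 4 of 9 other voltage-gated pores, 1 of 2 silent subunits and 4 of 5 2-pore channels.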

How the data were processed

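RNA from leg and extraocular muscle was measured on 22 Affymetrix arrays, and the authors deposited 1 linear intensity per probe set and array; per the labels a standard Affymetrix protocol was used, and software, background correction and summarization are not given in the sources used here. The 2% trimmed mean was 1500.8 to 1501.1 on every array, so no further normalization was applied. The number of arrays limits the precision. Gene symbols came from the platform annotation given, and all 51 member probe sets were found in a RefSeq gene table (GRCm38.p6).

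Of 12488 probe sets 66 controls were removed, and the 30% with the lowest mean log2(intensity + 16) were left out. The model, fitted in limma 3.58.1 (R 4.3.3), had a mean per group and used every array (trended empirical Bayes, 14 residual and 3.63 prior degrees of freedom), with two-sided tests adjusted by Benjamini-Hochberg within each of 9 comparisons and a threshold of 0.05. Each age had equal weight in the strain and muscle differences. The procedure was tested on simulated data. Plots were made in Python 3.11.15 (matplotlib 3.10.9). Promoter windows of 33 of the 42 genes were found among the RefSeq sequences given.

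The members and gene lists were chosen with earlier results of these data known. Named are Kcnab1, every member that passed in any comparison of that fit, the member with the highest mean in each class, members with several probe sets where at least 1 was tested, up to 3 genes of each pathway list with the smallest adjusted p, the 5 probe sets most correlated with Kcnab1, and its 3 nearest measured genes on either side; a few others were named after their values were seen (Kcna1, Kcnd2, Kcnk3, Kcnc1, Kcnu1, Kcnj5, Kcnj2, Kcnj3, Kcnmb1, Kcnn1 and Kcnn4). No 2 arrays held identical values. Same-numbered arrays deviated together at 10 months (correlations of 0.26 to 0.774) and not at 12 months (-0.0809 to 0.0392), and the comparisons of strain and muscle span both ages, so the fit has no replicate block; counts with the block are given where they differ by over 1.5 times.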

Additional observations from a re-analysis of the deposited data

Results flagged for a closer look

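The strain difference of Kcnab1 was not the same in the muscles: SJL exceeded Balb by 3.83 in leg and by 0.33 in EOM on the log2 scale, a difference of 3.50 (SE 0.54). This was picked out by the model's term for the difference between the muscles, and the gene was chosen with the pattern known, so no p is attached. The difference was 2.81 without the 4 replicate 1 arrays at 10 months. No group held enough arrays (at most 3) for a search for single outlying arrays.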

How the results depend on the processing

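The number of members that passed, Kcnab1 counted, moved with several settings. Kcnab1 was chosen for its strain and muscle pattern, so its passing in those comparisons is no support for that pattern. Without Kcnab1 the main counts were 0 of 26 for strain in leg and 0 of 26 for the difference between the muscles. For EOM against leg in SJL the count without it was 2 of 26. Shares over all probe sets are not given in this paragraph, so it shows only how the counts moved. For age in Balb EOM (1) it was 7 with array weights, 2 with the lowest 50% left out, 2 with a pseudocount of 64, 5 on 18 arrays, and 0 with median centring, with no filter, with quantile normalization or with only the groups compared. For age in Balb leg (12) it was 7 with the lowest 50% left out, 5 with median centring and 3 with quantile normalization; for age in SJL leg (12), 7 with the lowest 50% left out and 6 with quantile normalization; for age in SJL EOM (5), 9 with array weights, 8 with no filter, 3 with quantile normalization and 0 with only the groups compared. For EOM against leg in Balb (2) it was 6 with array weights, 5 with no filter, 0 on the 10-month arrays alone, and 6 on the 12-month arrays alone and on 18 arrays; in SJL (3) it was 6 with no filter. For strain in leg (1) it was 0 with the lowest 50% left out, which removes Kcnab1 by construction, 2 with no filter, when both Kcnab1 probe sets passed, and 3 on the 12-month arrays alone, where Kcnj9 and Kcnma1 were also called lower. For the difference between the muscles (1) it was 0 with the lowest 50% left out, 2 with no filter and 0 on the 10-month arrays alone. Members near background in all 8 groups numbered 5 below the 20th percentile and 21 below the 40th, in place of 10. Except where a filter removes or adds members, the cause was not tested. Leaving out 1 array at a time gave 1 to 2 for strain in leg, 0 to 0 for strain in EOM, 0 to 1 for the difference between the muscles (0 without replicate 2 of Balb EOM or replicate 1 of SJL EOM at 12 months, at an unchanged 3.50), 2 to 4 for EOM against leg in each strain, 4 to 12 and 8 to 13 for age in Balb and SJL leg (4 without replicate 3 of Balb leg at 10 months), and 0 to 1 and 2 to 6 for age in Balb and SJL EOM (2 without replicate 1 of SJL EOM at 12 months). With the replicate number within age as a block, 4 members passed for age in Balb EOM, 13 for age in SJL EOM and 6 for EOM against leg in Balb. Over the member differences called in the main fit, Kcnab1 among them, 1076 alternative fits kept direction and call, 144 lost the call and 0 reversed. Differences not called in the main fit are not in this tally. The alternatives reuse the same arrays, and the differences were picked for passing, so the tally is not independent support. Age and any difference in handling between the arrays of each age cannot be told apart.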
